A study of Homo sapiens with 12 samples.

Results

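The 6 genes described here are 4 members of the GATA family of zinc finger transcription factors (GATA2, GATA3, GATA4 and GATA6) and the 2 FOG cofactors, ZFPM1 and ZFPM2. They were taken by symbol from the 60660 genes quantified in mRNA sequencing of 2 human prostate cancer cell lines. LNCaP and 22Rv1 cells, which the study used as lines that respond to androgen deprivation, received either a negative control mimic (NC-mimic) or a mimic of piR-4447944, a PIWI-interacting RNA. All 12 libraries came from cells held in androgen-deprived medium with 10% charcoal-stripped serum (CS-FBS), so the controls shared the deprivation. Each line and mimic gave 3 libraries, which makes 4 groups. The mimic was a synthetic, chemically modified RNA brought in by transfection. The labels do not say whether the 3 libraries of a group came from separate cultures, so the p-values below measure only the spread between these libraries. The set was selected on measured values of these libraries, namely that GATA6 moved in opposite directions in the 2 lines. The mimic effect on the 6 genes is therefore given as a description with no test, and so is the GATA6 difference between the lines in each arm, whose values entered that choice. The other differences between the lines were tested.

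GATA factors bind the DNA sequence GATA through their zinc fingers. GATA1, GATA2 and GATA3 are best known from blood cell formation and GATA4, GATA5 and GATA6 from heart and endoderm. In prostate cells GATA2 acts beside FOXA1 at enhancers of luminal genes, and GATA3 is best known in epithelia from breast and bladder. ZFPM1 (FOG1) and ZFPM2 (FOG2) do not bind DNA by themselves. They bind the amino-terminal finger of GATA factors and bring in the NuRD complex and the CtBP proteins, which repress transcription.

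In hg38 coordinates of GENCODE v44, matched to the files by gene identifier without its version, GATA2 lies at chr3:128479427-128493201 on the minus strand and GATA3 at chr10:8045378-8075198 on the plus strand. GATA6 lies at chr18:22169589-22202528 and ZFPM1 at chr16:88453280-88537031, both on the plus strand. Annotated antisense RNAs overlap 4 of the 6 genes. The overlap is 3990 bases for GATA2-AS1, 3035 for GATA3-AS1, 290 for GATA6-AS1 and 258451 for ZFPM2-AS1. The sources used here do not state whether strand was used in counting, so reads in an overlap cannot be told apart.

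Promoters are shown for GATA2 and GATA6, the GATA genes detected in every library. Each is the stretch of 250 bases before the RefSeq start (GRCh38.p14), and capitals mark a match to CCAAT or its reverse complement ATTGG. The GATA2 stretch, before the first of 2 annotated starts, is chr3:128493202-128493451 on the minus strand, and the GATA6 stretch is chr18:22169339-22169588 on the plus strand.
GATA2: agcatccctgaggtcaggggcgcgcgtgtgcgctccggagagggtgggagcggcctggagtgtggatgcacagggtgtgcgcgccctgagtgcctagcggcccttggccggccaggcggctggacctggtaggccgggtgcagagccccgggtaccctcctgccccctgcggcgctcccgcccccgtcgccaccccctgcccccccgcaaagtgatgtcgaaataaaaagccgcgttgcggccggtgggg
GATA6: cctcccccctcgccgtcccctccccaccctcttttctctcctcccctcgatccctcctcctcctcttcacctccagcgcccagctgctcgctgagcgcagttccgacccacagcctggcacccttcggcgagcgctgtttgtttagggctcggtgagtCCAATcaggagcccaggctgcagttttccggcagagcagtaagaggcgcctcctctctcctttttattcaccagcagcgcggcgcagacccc
The GATA6 stretch holds 1 CCAAT, which starts 92 bases before the start site, and the GATA2 stretch shown holds none. The stretch before the second GATA2 start, not shown, holds 1, which starts 83 bases before that start. CCAAT, a motif looked for after the sequences had been read, occurs on either strand in 32.0% of the 35116 RefSeq promoter stretches of this length. The GATA motif AGATAA, or TTATCT on the other strand, occurs in 9.17% of them. AGATAA was found in none of the 10 stretches of GATA2, GATA3, GATA6 and ZFPM1. The GC content is 72.8% before GATA2 and 64.4% before GATA6, against a median of 58.0% over all stretches.

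Library depth ran from 12161091 to 22179601 expected counts. The replicate 3 libraries stood apart in both lines. Of 18720 genes kept over the 12 libraries, 37.2% in 22Rv1 and 26.3% in LNCaP had both replicate 3 libraries above or below all 4 others, against 9.19% to 14.2% for replicates 1 and 2. Some of the values below are therefore given with and without them, and the others only with them. All 8 luminal prostate markers reached a mean of 1 TPM or more in every group, where TPM is a transcript's abundance scaled by its length to a common total per library. Of 14 markers of other cell types, 2 to 4 did so, 4 to 6 were at 0 in all libraries of a group, and their summed TPM ran from 33.7 to 51.2 in LNCaP and from 12.1 to 39.0 in 22Rv1. Their part in the values below was not tested, and in bulk RNA fewer cells of a type and less RNA per cell cannot be told apart.

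GATA2 was the leading GATA transcript in both lines. Its TPM, the scale on which genes can be compared, was 183, 156 and 171 in the LNCaP NC-mimic libraries and 185, 178 and 164 in the LNCaP piR-4447944 mimic libraries. It was 51.8, 61.8 and 63.9 in 22Rv1 with NC-mimic and 51.1, 64.9 and 43.1 in 22Rv1 with the piR-4447944 mimic. Every LNCaP library was thus above every 22Rv1 library, and the 2 arms overlapped within each line.

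GATA2 was lower in 22Rv1 than in LNCaP in both arms. CPM, the count scaled by library size with TMM factors, serves to compare libraries. It averaged 102 ± 21.0 in 22Rv1 and 266 ± 25.1 in LNCaP with NC-mimic (SD, n = 3 each). The log2 fold change was -1.40 (SE 0.16, edgeR quasi-likelihood adjusted p = 0.000169), which is 2.64-fold lower. With the piR-4447944 mimic the means were 80.5 ± 11.0 and 274 ± 8.70 CPM, a log2 fold change of -1.76 (SE 0.12, edgeR adjusted p = 6.76e-05). Differences between these lines were common, so a call by itself says little: in the NC-mimic libraries 30.9% of 17497 tested genes passed an adjusted p of 0.05 as higher in 22Rv1 and 27.5% as lower. In the piR-4447944 mimic libraries the shares of 17283 genes were 28.2% higher and 24.2% lower. In size, 28.2% of genes in the first comparison and 22.3% in the second differed by more than GATA2 in absolute log2 fold change. Without replicate 3 the GATA2 differences were -1.49 and -1.74.

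GATA3 had reads in 22Rv1 only. Its expected count was 0 in all 6 LNCaP libraries, where a count of 0 allows up to 3 counts over a group, or 0.0543 CPM with NC-mimic and 0.0621 CPM with the piR-4447944 mimic (limits that cover counting error only). In 22Rv1 the counts were 391, 286 and 102 with NC-mimic and 248, 291 and 106 with the piR-4447944 mimic, or 14.2, 15.2 and 5.34 TPM and 11.9, 11.9 and 5.31 TPM. Replicate 3 was the lowest library in both arms. GATA3 was at least 289-fold higher in 22Rv1 with NC-mimic and at least 217-fold higher with the piR-4447944 mimic, taking 3 counts over the LNCaP group as the limit. The edgeR adjusted p-values were 8.83e-05 and 0.000721. GATA3 passed the low-count filter only through the 22Rv1 libraries, and so had to differ.

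ZFPM2 (chr8:104590733-105804539, plus strand) had the opposite pattern at a far lower level. Its counts were 28, 18 and 15 in LNCaP with NC-mimic and 19, 28 and 17 with the piR-4447944 mimic, against 5, 0 and 2 in 22Rv1 with NC-mimic and 0 in all 3 22Rv1 libraries with the piR-4447944 mimic. The LNCaP and 22Rv1 libraries did not overlap. In the NC-mimic libraries ZFPM2 was 7.84-fold higher in LNCaP by summed counts (61 against 7, exact 95% counting interval 3.58 to 20.3), with an edgeR adjusted p = 0.0106. That adjusted p was 0.0580 without LNCaP NC-mimic replicate 1. In the piR-4447944 mimic libraries it was at least 21.2-fold higher in LNCaP, where the limit is again 3 counts over the group (edgeR adjusted p = 0.00240). ZFPM2, too, passed the filter only through the line where it was high.

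ZFPM1 was detected in all 12 libraries. Its CPM was 13.5, 11.7 and 13.3 in LNCaP with NC-mimic, 14.5, 14.5 and 15.7 in LNCaP with the piR-4447944 mimic, 12.7, 15.5 and 14.8 in 22Rv1 with NC-mimic, and 14.5, 15.6 and 11.98 in 22Rv1 with the piR-4447944 mimic. The lines overlapped in both arms. The log2 fold change of 22Rv1 against LNCaP was 0.14 (SE 0.17, edgeR adjusted p = 0.489) with NC-mimic and -0.08 (SE 0.17, edgeR adjusted p = 0.721) with the piR-4447944 mimic, so no difference was detectable with 3 libraries a group. On the TPM scale the first value was -0.33 by limma on log2(TPM + 1) (limma adjusted p = 0.118), opposite in sign. The transcript length that RSEM weighted for ZFPM1 ran from 3051 to 5083 bases in LNCaP and from 4231 to 5432 bases in 22Rv1, and that length enters TPM but not CPM.

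GATA4 (chr8:11676959-11760002, plus strand) was near 0 throughout. It had 2 counts in 22Rv1 piR-4447944 mimic replicate 1 and 0 in the other 11 libraries, so both lines were within the limit of 3 counts over a group and no fold is given.

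**Figure D1:**
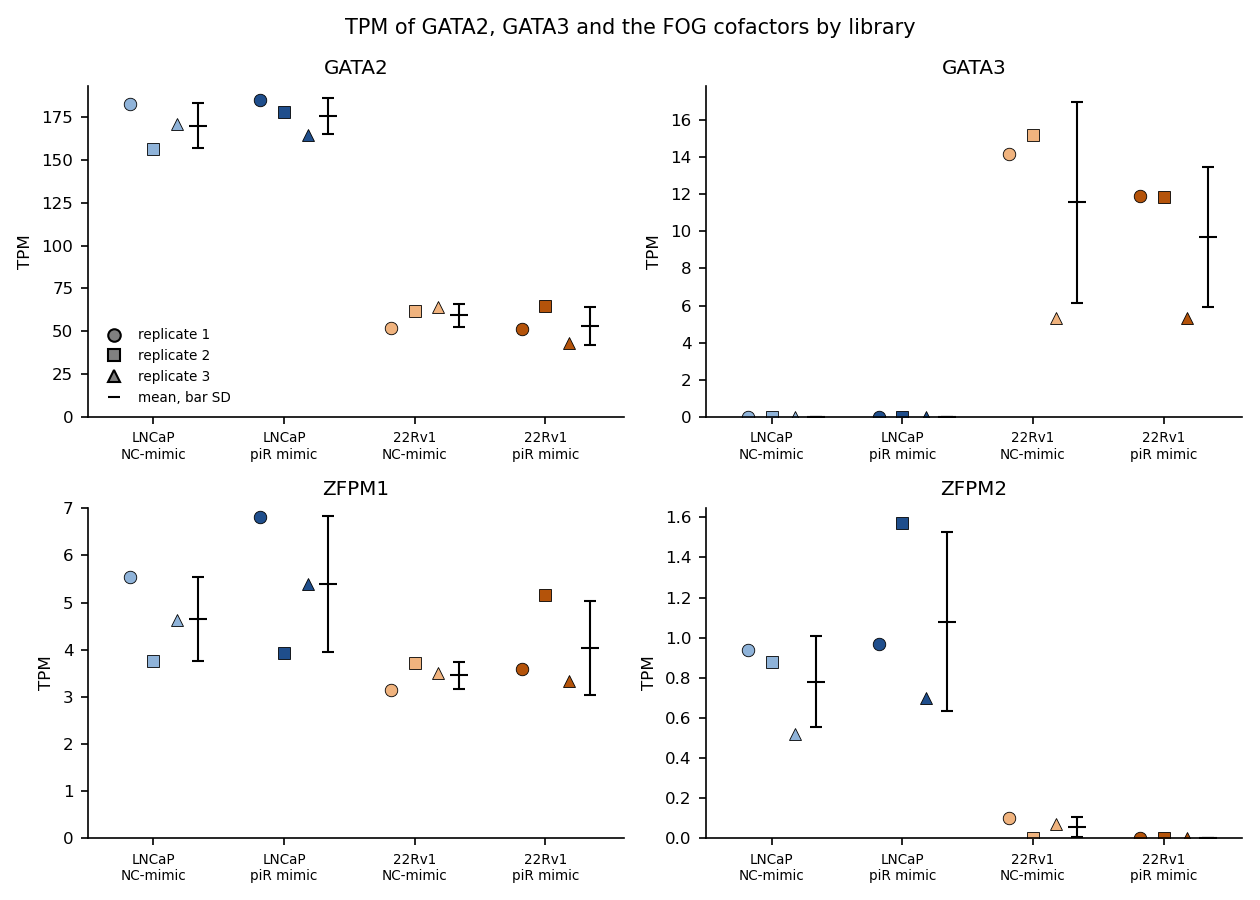
TPM (y axes, each from 0) of GATA2, GATA3, ZFPM1 and ZFPM2 in the 12 libraries, by group on the x axes; each point is a library, its shape the replicate number, and the bar is the mean with its SD (n = 3). All LNCaP libraries lie above all 22Rv1 libraries for GATA2 (156 TPM or more against 64.9 or less), GATA3 is at 0 in LNCaP, and replicate 3 is the lowest for GATA3 in both 22Rv1 arms.

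GATA6, a factor of endoderm and heart that several epithelia also express, was the only member whose arms did not overlap in either line. In CPM the LNCaP NC-mimic libraries held 11.1, 10.2 and 11.9, and the LNCaP piR-4447944 mimic libraries 8.65, 8.06 and 8.53. The 22Rv1 NC-mimic libraries held 9.89, 11.8 and 10.4, and the 22Rv1 piR-4447944 mimic libraries 16.8, 13.9 and 17.6. Each LNCaP mimic library was thus below all LNCaP controls and each 22Rv1 mimic library above all 22Rv1 controls.

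As these values chose the set, the changes are a description with no test. The LNCaP means were 8.41 ± 0.312 CPM with the mimic and 11.1 ± 0.836 with NC-mimic (SD, n = 3), a log2 fold change of -0.40 (SE 0.14). The 22Rv1 means were 16.1 ± 1.93 and 10.7 ± 1.01, a log2 fold change of 0.59 (SE 0.20). Among all tested genes, CPM ranges that did not overlap between arms were seen in 4.11% (higher) and 3.74% (lower) of 16244 genes in LNCaP, and in 4.06% (higher) and 4.72% (lower) of 16898 genes in 22Rv1. Nothing is read from these shares, since the same contrast gave the choice. Without replicate 3 the GATA6 changes were -0.35 in LNCaP and 0.51 in 22Rv1. Pairs of libraries with the same number gave -0.36, -0.34 and -0.47 in LNCaP and 0.76, 0.23 and 0.76 in 22Rv1 on the log2 CPM scale.

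With NC-mimic the GATA6 ranges of the lines overlapped. The log2 fold change of 22Rv1 against LNCaP was -0.06 (SE 0.18), given with no test, and 94.9% of tested genes differed by more in absolute log2 fold change. With the piR-4447944 mimic every 22Rv1 library was above every LNCaP library, at 16.1 against 8.41 CPM, a log2 difference of 0.94 (SE 0.17), given with no test. In TPM, GATA6 was 4.38 to 4.59 and 3.14 to 3.38 in the 2 LNCaP arms, and 3.76 to 4.35 and 5.45 to 8.14 in the 2 22Rv1 arms. The TPM of 8.14, in 22Rv1 piR-4447944 mimic replicate 1, came with an RSEM length of 2909 bases, against 3624 bases in the other 2 libraries of that group.

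The antisense neighbour GATA6-AS1, which starts inside the GATA6 span and runs away from it, varied widely at low counts. Its counts were 5, 5 and 1 in LNCaP with NC-mimic, 0, 1 and 1 in LNCaP with the piR-4447944 mimic, 34, 9 and 20 in 22Rv1 with NC-mimic, and 5, 17 and 53 in 22Rv1 with the piR-4447944 mimic. The 22Rv1 arms overlapped, while every 22Rv1 control was above every LNCaP control. With NC-mimic it was higher in 22Rv1 than in LNCaP by a log2 fold change of 2.62 (SE 0.68, edgeR adjusted p = 0.0102), or 6.36-fold by summed counts (63 against 11, exact 95% counting interval 3.33 to 13.4). GATA6-AS1 passed the low-count filter there only through the 22Rv1 libraries, and so had to differ. In the LNCaP arms the summed counts were 11 with NC-mimic and 2 with the mimic, a mimic-to-control ratio of 0.208 (exact 95% counting interval 0.0224 to 0.953), with no replicate test because it did not pass the low-count filter there.

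**Figure D2:**
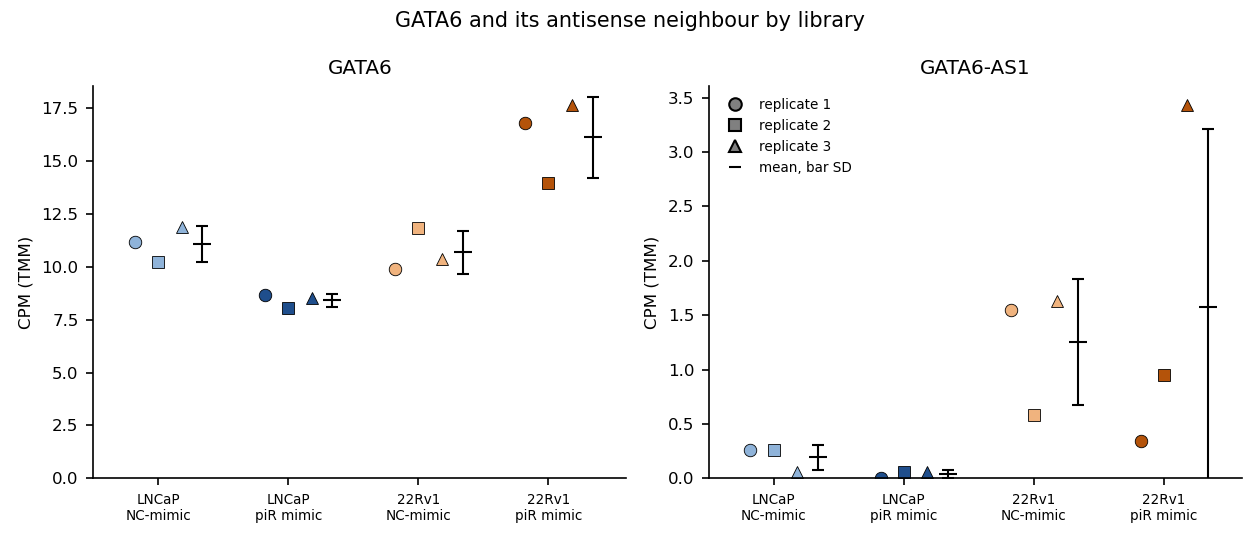
CPM (y axes, TMM scaled, from 0) of GATA6 on the left and GATA6-AS1 on the right in the 12 libraries, by group on the x axes; each point is a library, its shape the replicate number, and the bar is the mean with its SD (n = 3). For GATA6 the mimic libraries lie below the controls in LNCaP and above them in 22Rv1, while GATA6-AS1 spans 0.344 to 3.43 CPM within 1 group.

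The mimic changes of the other members are likewise given with no test. GATA2 changed by a log2 value of 0.04 (SE 0.07) in LNCaP and -0.34 (SE 0.19) in 22Rv1, where it was -0.16 without replicate 3, and its arms overlapped in both lines. In 22Rv1 its pairs of the same number gave -0.11, -0.22 and -0.64. GATA3 changed by -0.15 (SE 0.44) in 22Rv1, which leaving out libraries of an arm, and so breaking a pair, moved between -0.44 and 0.16. Its pairs gave -0.06, -0.19 and -0.27, all of one sign, while the spread between replicates within an arm was larger. ZFPM1 changed by 0.21 (SE 0.12) in LNCaP and by -0.03 (SE 0.21) in 22Rv1. Its CPM ranges did not overlap in LNCaP, which was also seen (higher) in 4.11% of 16244 tested genes. ZFPM2 changed by 0.27 (SE 0.39) in LNCaP. In 22Rv1 its counts were 7 with NC-mimic and 0 with the mimic, and it did not pass the filter.

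The makeup of the family differed between the lines. GATA2 took 97.2% ± 0.171 of the summed TPM of GATA1 to GATA6 in LNCaP with NC-mimic and 98.1% ± 0.275 with the piR-4447944 mimic (SD, n = 3). In 22Rv1 it took 79.2% ± 7.21 and 76.1% ± 3.87, and GATA3 took 15.4% ± 7.09 and 13.6% ± 3.64. GATA6 took 2.58% ± 0.258 and 1.83% ± 0.117 in the LNCaP arms, and 5.32% ± 0.0930 and 10.1% ± 3.08 in the 22Rv1 arms. The sum itself was 161 to 188 TPM in LNCaP and 55.5 to 82.2 TPM in 22Rv1, so a larger GATA6 share in 22Rv1 with NC-mimic went with a lower GATA2 level and not with more GATA6. The ratio of GATA2 to GATA6 TPM was 34.1 to 41.7 and 49.8 to 56.6 in the LNCaP arms, and 13.8 to 16.8 and 6.26 to 11.9 in the 22Rv1 arms. GATA1, the erythroid factor, had at most 3 counts in a group. GATA5 had 26 and 16 counts in the LNCaP arms and 3 and 2 in the 22Rv1 arms. Its counts with NC-mimic were 7.80-fold higher in LNCaP (exact 95% counting interval 2.39 to 40.3), with no replicate test because it did not pass the filter, and all 16 counts of the LNCaP mimic arm came from replicate 3.

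In order of TPM, GATA2 stood above all other members in every group. With NC-mimic in LNCaP, ZFPM1 (3.77 to 5.55) and GATA6 overlapped. With the mimic in LNCaP, ZFPM1 (3.94 to 6.82) was above GATA6. In 22Rv1 with NC-mimic, GATA3 was second, followed by GATA6 and then ZFPM1 (3.14 to 3.71). With the mimic the GATA3 range (5.31 to 11.9) overlapped the GATA6 range, and ZFPM1 (3.33 to 5.17) was below both. In LNCaP ZFPM2 was next, at 0.520 to 1.57 TPM, and GATA3 and GATA4 were both at 0. In 22Rv1 ZFPM2 and GATA4 were each at 0.10 TPM or less in every library.

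**Figure D3:**
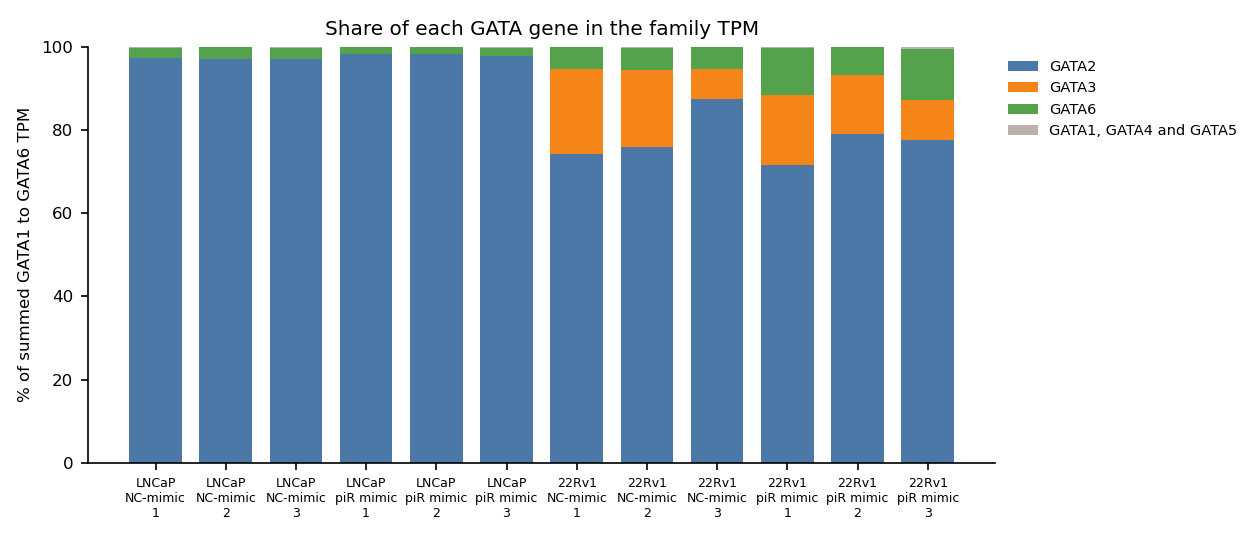
Share of each GATA gene in the summed GATA1 to GATA6 TPM (y axis, percent) in each of the 12 libraries (x axis, by group and replicate number), as stacked bars. GATA2 fills 97.1% to 98.2% of every LNCaP bar, while GATA3 appears only in 22Rv1 and the GATA6 segment is widest in the 22Rv1 piR-4447944 mimic libraries (6.63% to 12.4%).

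The antisense RNAs of the other members followed the line in part. GATA3-AS1 had 0 counts in all 6 LNCaP libraries and 15 to 66 in the 22Rv1 libraries, which is at least 38.9-fold higher in 22Rv1 with NC-mimic (3 counts over the LNCaP group, edgeR adjusted p = 0.000936). ZFPM2-AS1 had 132 to 176 counts in LNCaP and 0 in all 6 22Rv1 libraries, at least 136-fold lower with NC-mimic (3 counts over the 22Rv1 group, edgeR adjusted p = 4.25e-05). Each of these 2 antisense RNAs passed the low-count filter only through the line where it had reads, and so had to differ. The TPM of ZFPM2-AS1 in LNCaP, 20.4 to 31.7, was above that of ZFPM2. GATA2-AS1 showed no detectable difference in the comparison where GATA2 was lower: it held 47.9 to 50.9 CPM in LNCaP and 42.1 to 50.5 CPM in 22Rv1 with NC-mimic, a log2 fold change of -0.10 (SE 0.11, edgeR adjusted p = 0.454).

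Other genes with GATA-type fingers and the corepressors that FOG proteins recruit were split in direction between the lines. The lists, like the set itself, were chosen with earlier results of these data known. Of 10 genes with GATA-type fingers, 8 were tested in the NC-mimic libraries, of which 2 were higher in 22Rv1 and 2 lower at an adjusted p of 0.05, with a median log2 fold change of -0.04 against 0.01 over all genes. GATAD2B, a NuRD subunit, was the most raised at 0.91 (SE 0.12, edgeR adjusted p = 0.000337), followed by GATAD1 at 0.35. MTA3 at -0.59 and MTA1 at -0.33, both NuRD subunits, were lower. The GATAD2B and MTA3 calls were lost by limma on log2(TPM + 1), with limma adjusted p-values of 0.188 and 0.209. The MTA1 and GATAD1 calls were lost by edgeR without LNCaP NC-mimic replicate 1 (adjusted p = 0.0608 and 0.0570), and the GATAD1 call also with no low-count filter (0.0509). TRPS1, a repressor with a GATA finger, had a log2 fold change of -0.10 (SE 0.18, edgeR adjusted p = 0.663), which became -0.30 (adjusted p = 0.0163) without replicate 3. With the piR-4447944 mimic 1 of 8 was higher and 2 were lower, which became 1 and 4 without replicate 3 and 2 and 4 without 22Rv1 mimic replicate 3. With NC-mimic the calls became 1 higher and 1 lower without LNCaP NC-mimic replicate 1.

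All 15 NuRD and CtBP genes were tested. With NC-mimic 4 were higher in 22Rv1 and 5 lower, with a median log2 fold change of 0.00, and with the piR-4447944 mimic 5 were higher and 5 lower, with a median of -0.13 against 0.04 over all genes. CTBP2, a corepressor that FOG proteins bind, was lower in 22Rv1 by -1.70 (SE 0.09, edgeR adjusted p = 3.12e-06), or 3.24-fold, and by -1.58 with the mimic. CHD3, a NuRD helicase, was lower by -1.26 (SE 0.25, edgeR adjusted p = 0.00268). HDAC1, a histone deacetylase of NuRD, was higher by 0.51 (SE 0.10, edgeR adjusted p = 0.00282). The share called with NC-mimic, 9 of 15, was close to that of all genes. The 5 higher and 5 lower calls with the mimic became 1 and 4 without LNCaP mimic replicate 1 and 2 and 4 without LNCaP mimic replicate 2. They became 7 and 8 without 22Rv1 mimic replicate 3 and 6 and 8 without replicate 3 of both lines.

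Few blood partners of GATA factors were measurable. Of 11, 3 were tested with NC-mimic, and LDB1, a bridging protein that blood GATA complexes and many other cells share, was lower in 22Rv1 by -0.76 (SE 0.10, edgeR adjusted p = 0.000371). A second partner was called lower without LNCaP NC-mimic replicate 3, 22Rv1 NC-mimic replicate 2 or 22Rv1 NC-mimic replicate 3. In those fits 4 partners were tested and not 3. The added partner did not pass the low-count filter with all libraries, so nothing is read from the second call. With the piR-4447944 mimic edgeR called none of 3 at an adjusted p of 0.05, and called 1 or 2 when replicate 3 of both lines or 22Rv1 mimic replicate 1 or 3 was left out.

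Of 14 partners and targets of GATA4 and GATA6 in endoderm and heart, 5 were tested in each arm and all 5 were called, 4 higher in 22Rv1 and 1 lower. The pair described here was at 0 in the LNCaP controls and passed the filter through 22Rv1, so the count carries no support. NKX2-5, a heart homeodomain factor, had 442 counts over the 22Rv1 NC-mimic libraries and 0 in LNCaP, at least 164-fold higher (3 counts over the LNCaP group). MEF2C, a muscle and heart factor, had 382 against 0, at least 141-fold higher by the same limit. GATA4 itself was near 0 in the same libraries.

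Of 13 genes of the luminal prostate programme, 12 were tested in each arm, of which 3 were higher in 22Rv1 and 6 lower in both arms. FOXA1, the pioneer factor beside GATA2, was lower by -0.67 (SE 0.08, edgeR adjusted p = 0.000248) with NC-mimic and HOXB13, a prostate homeodomain factor, by -0.66. KLK3, which encodes PSA, was lower by -5.30 (SE 0.14) and KLK2 by -1.99, while FKBP5 was higher by 2.24. Of the 8 luminal markers, 5 were called in each arm, 2 higher and 3 lower. Beyond the genes already named, KRT18, a luminal keratin, was higher with NC-mimic by 0.31, a call lost in 4 of 15 alternatives (adjusted p up to 0.102). Of the markers of other cell types, 5 were tested, and VWF (264 counts in LNCaP against 3 in 22Rv1) and COL1A1 (-1.72) were lower in 22Rv1, while 1 was higher. VWF passed the filter only through LNCaP. With the mimic 1 was higher and 1 lower.

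**Figure D4:**
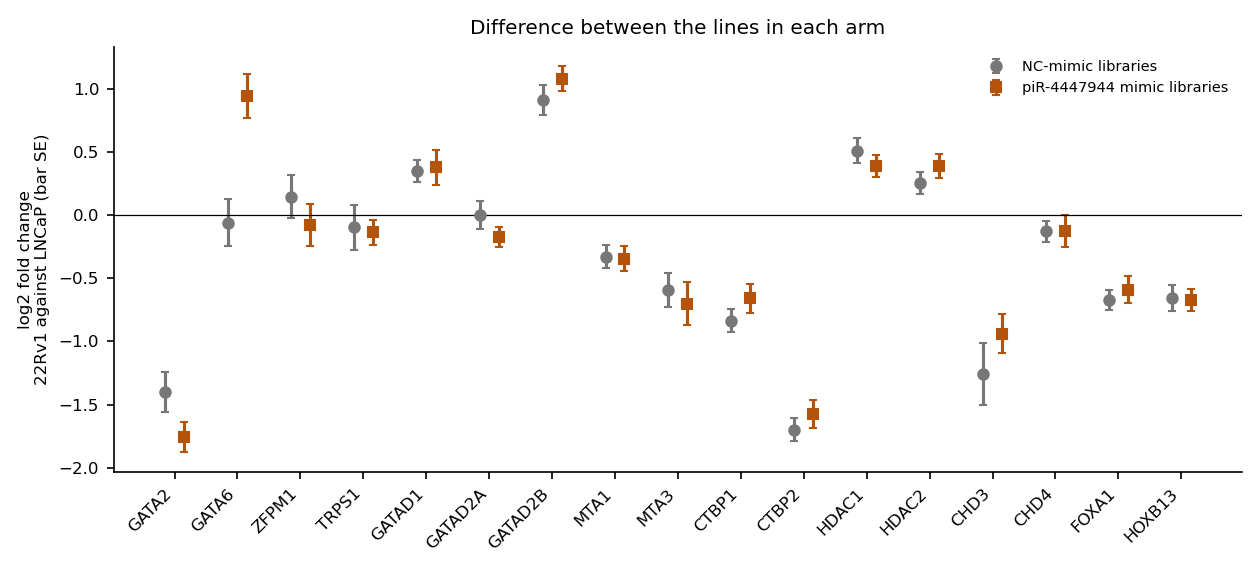
Log2 fold change of 22Rv1 against LNCaP (y axis, bars are SE) for members, GATA-finger genes, corepressors and 2 prostate factors (x axis), in the NC-mimic libraries (grey circles) and the piR-4447944 mimic libraries (orange squares), 3 libraries per line and arm. GATA6 sits at -0.06 and 0.94 and GATA2 at -1.40 and -1.76, while CTBP2 is the lowest corepressor shown in both arms and GATAD2B the highest.

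No gene of the finger, corepressor, blood partner, endoderm and heart or antisense lists was called for the mimic. The study called genes at an unadjusted p below 0.05 and an absolute log2 fold change above 0.2, with DESeq2 fold changes shrunk toward 0. On edgeR fold changes, not shrunk in that way, the rule was met by 1.38% (higher) and 0.843% (lower) of genes in LNCaP. In 22Rv1 these shares were 0.799% and 0.681%. With shrunken DESeq2 fold changes the rule was met by 2 (higher) and 0 (lower) genes in LNCaP, and by 142 and 91 in 22Rv1. In 22Rv1, where same-numbered libraries were taken as paired from the values alone, an edgeR fit with the replicate block raised the number from 250 to 420 genes. In LNCaP, not taken as paired, the block raised it from 224 to 304 (higher) and from 137 to 204 (lower). With all 6 libraries of a line and the low-count filter, edgeR passed 0 genes in either line at an adjusted p of 0.05, against 433 and 250 at an unadjusted p of 0.05, and DESeq2 passed 2 and 4. In LNCaP edgeR passed 46 with no low-count filter, 2 without NC-mimic replicate 3 and 5 without replicate 3 of both arms, and in 22Rv1 it passed 4 without replicate 3 of both arms. By limma on log2(TPM + 1) it was 4 in each line, and on log2(TPM + 0.1) 5 and 10. Over the 5 lists of finger genes, corepressors, blood partners, endoderm and heart genes and antisense RNAs, which hold 49 genes, 24 were tested in LNCaP and 30 in 22Rv1. None had an unadjusted p below 0.05 in either line by edgeR, with or without the replicate block, by edgeR without replicate 3, or by DESeq2. With shares this low over all genes, a count of 0 among so few is close to the background. Of the luminal programme, 0 of 12 met the rule in LNCaP and 2 of 11 in 22Rv1, KLK2 and KLK3. KLK3 had a log2 fold change of -0.76 there (SE 0.28), which did not pass the adjusted test (edgeR adjusted p = 0.999) and was -0.47 without replicate 3.

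The genes most like each member were those with the highest Pearson r of log2 CPM over the 12 libraries, after each line's mean was subtracted, among 18720 genes. For GATA6 they were MSL2 (r = 0.90), AC005786.4 (0.90) and AC006480.2 (0.90), and for GATA2 FARSA (0.95), POP7 (0.91) and PRXL2B (0.91). For GATA3 they were NAAA (0.99), TRIM25 (0.99) and SREBF1 (0.99), but GATA3 is constant at 0 in LNCaP and lowest in replicate 3 of 22Rv1, so these values rest on 6 libraries and mainly on that replicate. For ZFPM1 they were SPATA2L (0.90), AARS2 (0.89) and MSANTD3-TMEFF1 (0.88), and for ZFPM2 ARMC7 (0.85), AC007342.6 (0.84) and COX15 (0.84). Between members r was -0.47 for GATA2 with GATA6, 0.56 for GATA2 with ZFPM1 and -0.72 for GATA6 with ZFPM2. The libraries share their arms, their replicate numbers and, for ZFPM2, counts under 30, and with so many genes searched such values are a description only.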

How the data were processed

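Messenger RNA was sequenced in 12 libraries. Strand and RNA selection are not given in the sources used here. The authors aligned reads to hg38 with STAR 2.7.1a and deposited, per library, RSEM 1.3.0 expected counts, TPM and RSEM lengths for 60660 genes. The members and gene lists were chosen with earlier results of these data known. Named genes were the members, fixed landmark genes and, per list, the 2 largest changes in each direction among those called between the lines. Some items that this rule names are not reported here.

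Expected counts were rounded and tested with edgeR 4.0.16 (filterByExpr, TMM, quasi-likelihood, Benjamini-Hochberg over all genes tested) in R 4.3.3, with one fit per comparison. SE values follow from the log2 fold change and its F statistic. CPM used TMM factors over the 12 libraries. Alternatives used DESeq2 1.42.0, limma 3.58.1 on log2(TPM + 1) or log2(TPM + 0.1) with TPM of at least 1 in 3 libraries, other filters, a replicate block, and fewer libraries. Lower bounds take 3 counts over a group at 0, and counting intervals are exact 95% binomial. Intervals and limits cover counting error only. The scripts were tested on simulated data.

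Replicate numbers come from the titles. Same-numbered 22Rv1 libraries deviated together across the arms (correlations 0.198, 0.167 and 0.355), from the values alone, and so were taken as paired. The LNCaP arms (0.0211, 0.00504 and 0.189) and the lines were not taken as paired, although LNCaP replicate 3 at 0.189 was above 22Rv1 replicate 2 at 0.167. The main fits left out the replicate block in both lines, so their SE and p-values do not use the pairing.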

Additional observations from a re-analysis of the deposited data

Results flagged for a closer look

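GATA6 moved in opposite directions in the 2 lines: all 3 mimic libraries were below the NC-mimic mean in LNCaP and all 3 were above it in 22Rv1. The log2 fold changes differed by 0.98 (0.59 in 22Rv1 minus -0.40 in LNCaP). The difference was not tested, because this movement was the reason for choosing the set. Of the other members and landmark genes, none had every mimic library on opposite sides in the 2 lines.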

How the results depend on the processing

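The GATA2 difference between the lines kept its direction and its call in all 15 alternatives of each arm, between -1.53 and -1.24 with NC-mimic and between -1.87 and -1.69 with the piR-4447944 mimic. GATA6 with NC-mimic, not tested, turned to 0.0029 without replicate 3, and leaving out libraries gave -0.14 to 0.0029. ZFPM1, not called, turned to -0.33 and -0.40 by limma on log2(TPM + 1) and log2(TPM + 0.1) with NC-mimic, and to 0.022 without 22Rv1 mimic replicate 3 and 0.064 without replicate 3 of both groups with the mimic, where leaving out libraries gave -0.16 to 0.064. These TPM fits also moved the median of all genes by -0.12 and -0.14. TRPS1 turned to 0.034 without 22Rv1 NC-mimic replicate 2, in a leave-out range of -0.35 to 0.034.

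The GATA6 mimic change was -0.084 in LNCaP and 0.32 in 22Rv1 by DESeq2 with shrinkage, and 0.75 in 22Rv1 by limma on log2(TPM + 0.1). Shrinkage pulls small changes toward 0 by construction. GATA6-AS1 in 22Rv1, not called, turned to -0.013 with the replicate block and -0.71 without replicate 3, and leaving out 1 library gave -0.93 to 0.77. The number of genes called for the mimic by the study's thresholds, on edgeR fold changes without the study's shrinkage, was 361 in LNCaP. It became 2 by DESeq2 1.42.0 with shrunken fold changes on rounded expected counts. The study used DESeq2 1.34.0 with such shrinkage and reported more genes than these as changed in both lines. Its list was thus not reproduced here, and the reason was not tested. The LNCaP number became 891 with no low-count filter, 168 with all 12 libraries in one fit, 656 and 639 by limma, and 929 without replicate 3. With 1 library left out it was 284 to 1008, the highest without LNCaP NC-mimic replicate 3. In 22Rv1 it was 250 and became 532 with no filter, 1232 with all 12 libraries in one fit, 420 with the replicate block, 541 and 529 by limma, 376 without 22Rv1 mimic replicate 3 and 781 without replicate 3 of both groups, with 183 as the lowest. With the replicate block, which takes same-numbered 22Rv1 libraries as paired, the GATA6 mimic change in 22Rv1 was 0.58. The causes were not tested.

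Between the lines no call of a member was lost with the block. For GATA3 and ZFPM2 this carries no support, since each passed the low-count filter only through the line where it was high. ZFPM2 and GATA3-AS1 rest on few counts, and GATA4 and GATA1 could not be compared at this depth.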
